A study of Homo sapiens with 34 samples.

Results

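The control arms of an RNA-seq experiment on 3 human B-ALL cell lines, cells given a scrambled shRNA and cells given the solvent DMSO, were compared with each other. They hold 17 of the 34 samples of the series, 9 with scrambled shRNA and 8 with DMSO. NALM-6, which carries ETV6-PDGFRB, and RS4;11, which carries MLL-AF4, had 3 samples of each kind. BV-173, which carries BCR-ABL, had 3 scrambled and 2 DMSO samples. Each is a single established line, kept in RPMI1640 medium with serum. The scrambled cells carried the lentiviral vector pRSI12-U6-shUbiC-TagRFP, which expresses an shRNA and a red fluorescent marker, and were collected by a cell sort 4 days after they had been transduced. The DMSO cells were not transduced and were collected on day 3, with no sort in the labels. The matching treated arms, a *CCND3* shRNA in the same vector (shCCND3) and 1 µM of the CDK4/6 inhibitor palbociclib, are given beside the controls as a description. In each line the scrambled group was tabulated with shCCND3 and the DMSO group with palbociclib, so the 2 controls come from 2 separately scaled tables.

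The difference between these controls mixes transduction with the vector, cell sorting, day 4 against day 3, the solvent and the scaling of the tables, and these cannot be told apart here. The deposited tables hold 1 value per group and none per sample. The cell line is therefore the unit of replication (n = 3), the spread between cultures is unknown, and so is the depth per sample. Every level below is the group value divided by the sum of its column and multiplied by 1e+06 (parts per 1e+06, ppm), and every difference is log2 of scrambled over DMSO. Levels were not divided by transcript length, so they are compared between groups and never between genes. In bulk RNA, fewer cells of a type and less RNA per cell cannot be told apart.

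A scrambled shRNA passes through the same delivery, integration and small RNA processing as a targeting shRNA, but is designed to match no transcript. DMSO dissolves palbociclib and controls for the solvent alone. Immediate early genes, such as the JUN and FOS families and the RNA-binding protein ZFP36, are switched on by serum, growth factors, stress and handling without new protein synthesis, and JUN and FOS proteins pair to form the factor AP-1. Metallothioneins bind zinc and copper, and the zinc exporter SLC30A1 carries zinc out of the cell. Both are known targets of the zinc-sensing factor MTF1, which binds metal response elements.

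The promoter windows of 3 genes that were higher in the scrambled groups are shown, *JUND* for its exact match to an element of immediate early promoters, and *MT2A* and *SLC30A1* for their matches to the metal response element. They run from 250 bases before to 50 bases after the start site (RefSeq, GRCh38.p14, strand of the gene). Capitals mark an exact cyclic AMP response element (CRE, TGACGTCA) in *JUND*, and the core of the metal response element (TGCACNC or TGCGCNC) on either strand in *MT2A* and *SLC30A1*. The windows lie at chr19:18281573-18281872 (minus strand), chr16:56608334-56608633 (plus strand) and chr1:211579112-211579411 (minus strand).

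JUND: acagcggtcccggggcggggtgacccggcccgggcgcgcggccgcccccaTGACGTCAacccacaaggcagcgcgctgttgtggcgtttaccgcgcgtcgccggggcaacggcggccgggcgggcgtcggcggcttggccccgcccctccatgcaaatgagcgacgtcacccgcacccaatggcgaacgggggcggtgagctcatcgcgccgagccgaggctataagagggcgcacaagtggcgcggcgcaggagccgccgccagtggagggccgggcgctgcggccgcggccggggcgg

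MT2A: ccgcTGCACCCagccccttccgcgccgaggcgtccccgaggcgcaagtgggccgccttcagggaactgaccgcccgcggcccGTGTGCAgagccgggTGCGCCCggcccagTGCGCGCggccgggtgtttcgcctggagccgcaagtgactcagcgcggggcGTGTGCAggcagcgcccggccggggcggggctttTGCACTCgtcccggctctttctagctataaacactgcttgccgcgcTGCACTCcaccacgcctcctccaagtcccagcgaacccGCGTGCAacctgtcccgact

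SLC30A1: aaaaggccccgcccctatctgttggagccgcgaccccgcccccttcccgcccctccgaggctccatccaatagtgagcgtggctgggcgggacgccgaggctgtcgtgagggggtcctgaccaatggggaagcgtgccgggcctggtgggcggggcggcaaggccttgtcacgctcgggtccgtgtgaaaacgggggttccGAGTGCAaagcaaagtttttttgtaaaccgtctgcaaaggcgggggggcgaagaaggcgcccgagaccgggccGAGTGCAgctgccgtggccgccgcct

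The *MT2A* window held 8 metal response element cores and the *SLC30A1* window 2. Of 27305 RefSeq promoters of this length, 29.3% held at least 1 such core and 1.98% a CRE. The AP-1 site TGANTCA was in 7.76% and the CArG box, the motif of serum response factor, in 1.29%. Among the 19 of the 21 genes called higher that had a window, 10 held a metal response element core. A CRE (*JUND*), an AP-1 site (*MT2A*) and a CArG box (*MKNK2*) were each held by 1. The 27305 promoters include genes not listed here and were not matched to the 19 for GC content or level. A difference between these shares was not tested. No exact match to these motifs was found in the *JUN* and *FOSB* windows. A match is a string of letters, and no binding was measured.

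Of 17587 genes listed in any of the 6 tables, 13307 were listed in all 6, and 10040 of these (75.4%) had a mean of at least 5 ppm over the 6 control groups. The control columns summed to between 18.3 and 19.8 in units of 1e+06 before scaling. The targeted gene was checked first. *CCND3* (chromosome 6, 41934933 to 42050035), the D-type cyclin under study, stood in the shCCND3 groups at 262 ppm in NALM-6, 172 in RS4;11 and, for BV-173, 99.2. It stood at 1065, 850 and 342 ppm in the scrambled groups, and at 1447, 881 and 387 ppm in the DMSO groups, so the lowest values were in the groups labelled as knockdown. The scrambled to DMSO differences of *CCND3* were -0.44, -0.05 and -0.18, with a mean of -0.22 ± 0.13 (SE, n = 3 lines) that was not called (limma, adjusted p = 0.57). All 14 markers of B-cell precursors were listed, with a sum from 4022 to 7353 ppm over the control groups.

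The 2 controls differed most in NALM-6. Among the 10040 genes at 5 ppm or more, 1114 were at least 1.5-fold higher and 255 at least 1.5-fold lower in the scrambled cells of NALM-6. The same counts were 415 and 127 in RS4;11, and 362 and 538 in BV-173. More genes were thus higher than lower in NALM-6 and RS4;11, and more lower than higher in BV-173. The median difference of these genes was 0.11, -0.02 and -0.01. Centring each line on its median therefore shifts NALM-6 by 0.11, and no direction given below for a called gene turned under it. Across the 10040 genes the differences of NALM-6 and RS4;11 had a Pearson correlation of 0.349, those of RS4;11 and BV-173 of 0.209, and those of NALM-6 and BV-173 of 0.0882. Genes are not independent replicates, and the columns of each kind were made in the same way for each line.

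A small set of genes differed in the same way in all 3 lines. limma, fitted over the 3 line differences of all 13307 genes, called 21 genes higher in the scrambled groups (0.158%) and 2 lower (0.015%), at an adjusted p under 0.1 and a mean of at least 1.5-fold. Of the 21, 19 had a mean of at least 5 ppm and 18 were past 1.5-fold in every line. Without any test, 262 genes (1.97%) were at least 1.5-fold higher and 22 (0.165%) at least 1.5-fold lower in each line. Among genes at 5 ppm or more these counts were 59 (0.588%) and 5 (0.0498%). The calls depend on moderating the variance of each gene towards a trend with level. When it was moderated towards 1 common value instead, no gene was called (limma, 0 higher and 0 lower, smallest adjusted p 0.254). In that fit 1321 genes had an unadjusted p under 0.05, against 1444 in the fit used. Without BV-173, limma called 443 genes higher and 46 lower, without RS4;11 48 and 9, and without NALM-6 30 and 3. With a pseudocount of 1 ppm 9 genes were still called higher, *JUN*, *SPIB*, *ID2*, *CBFA2T3*, *MT2A*, *ZFP36*, *JUND*, *HEXIM1* and *SRSF6*, and *CHCHD10* was still called lower.

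**Figure D1:**
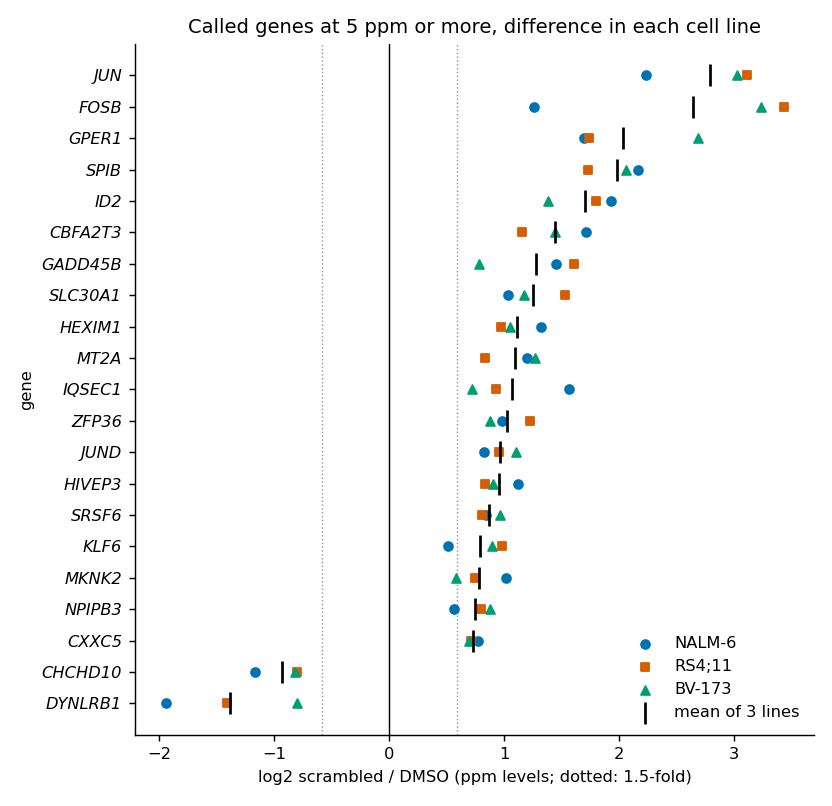
Log2 of scrambled over DMSO (x axis) in NALM-6 (circles), RS4;11 (squares) and BV-173 (triangles) for the called genes at 5 ppm or more (y axis), with a black bar at the mean of 3 lines and dotted lines at 1.5-fold. The 19 genes called higher lie to the right of 0 in every line, up to a mean of 2.79 for *JUN*, and *CHCHD10* and *DYNLRB1* lie to the left.

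*JUN*, the transcription factor subunit of AP-1 (chromosome 1, 58780791 to 58784047), had the largest difference among called genes at 5 ppm or more. It stood at 46.1 ppm in scrambled NALM-6 cells against 9.80 in DMSO, at 33.6 against 3.90 in RS4;11 and at 17.1 against 2.10 in BV-173. These are 4.70-, 8.62- and 8.13-fold, with a mean log2 difference of 2.79 ± 0.22 (SE, n = 3 lines, limma adjusted p = 0.0043). Both shRNA groups were above both compound groups in every line, at 58.1 against 22.5 ppm for shCCND3 and palbociclib in NALM-6, 15.9 against 2.43 in RS4;11 and 19.9 against 7.60 in BV-173.

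*FOSB*, an AP-1 partner of JUN (chromosome 19, 45467996 to 45475179), was higher by 2.64 ± 0.39 (adjusted p = 0.071). Its levels were 3.28 against 1.37 ppm in NALM-6, 41.0 against 3.81 in RS4;11 and 21.7 against 2.31 in BV-173, so the difference was smallest in NALM-6. In that line palbociclib-treated cells held 5.08 ppm and shCCND3 cells 4.69, both above the scrambled group. The call was lost with a pseudocount of 1 ppm.

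*JUND*, the family member that resting cells also hold, was higher by 0.96 ± 0.12 (adjusted p = 0.026), with 107 against 60.1 ppm in NALM-6, 135 against 69.5 in RS4;11 and 72.7 against 33.8 in BV-173. *ZFP36*, which binds AU-rich elements and shortens the life of mRNAs, was higher by 1.03 ± 0.12 (adjusted p = 0.026). It stood at 94.4 against 47.9 ppm, 78.7 against 33.6 and 71.8 against 39.1. *KLF6*, a zinc finger factor named after its values were seen, was called at 0.79 ± 0.13 (adjusted p = 0.089), but not without RS4;11 or after median centring.

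Of the 33 immediate early genes listed, these 5 were called higher and none lower, against 0.158% and 0.015% of all genes. The gene lists, this one included, were chosen with earlier results of these data known, so their shares are no independent evidence. Without any test, 8 of the 33 were past 1.5-fold higher in every line, against 1.97% of all genes. The 8 were *JUN*, *FOSB*, *FOS*, *JUND*, *ZFP36*, *EGR3*, *NR4A3* and *CCN1*, of which *CCN1* was below 0.05 ppm in every control group. *FOS* stood at 2.08 against 1.07 ppm, 26.3 against 3.81 and 23.6 against 6.03, with a mean of 1.91 ± 0.33 that was not called (limma, adjusted p = 0.11). *EGR3*, a zinc finger factor of the EGR family, had a mean of 2.74 ± 0.60 (adjusted p = 0.19) and reached 10.2 ppm in scrambled RS4;11 cells against 0.471 in DMSO.

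The median over the 33 genes was 0.44, against 0.05 over all genes, and by line it was 0.52, 0.89 and 0.23. Differences above 0 in every line were found for 17 of the 33 and for 2888 of all 13307 genes. *MYC*, which drives growth and is also induced by serum, went the other way, with 877 against 1044 ppm, 386 against 422 and 636 against 1153. Its mean of -0.41 ± 0.16 was not called (adjusted p = 0.41). *DUSP4* and *DUSP6*, phosphatases that act on ERK, had means of -0.72 ± 0.38 and -0.36 ± 0.40, and neither was called (adjusted p = 0.53 and 0.78).

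**Figure D2:**
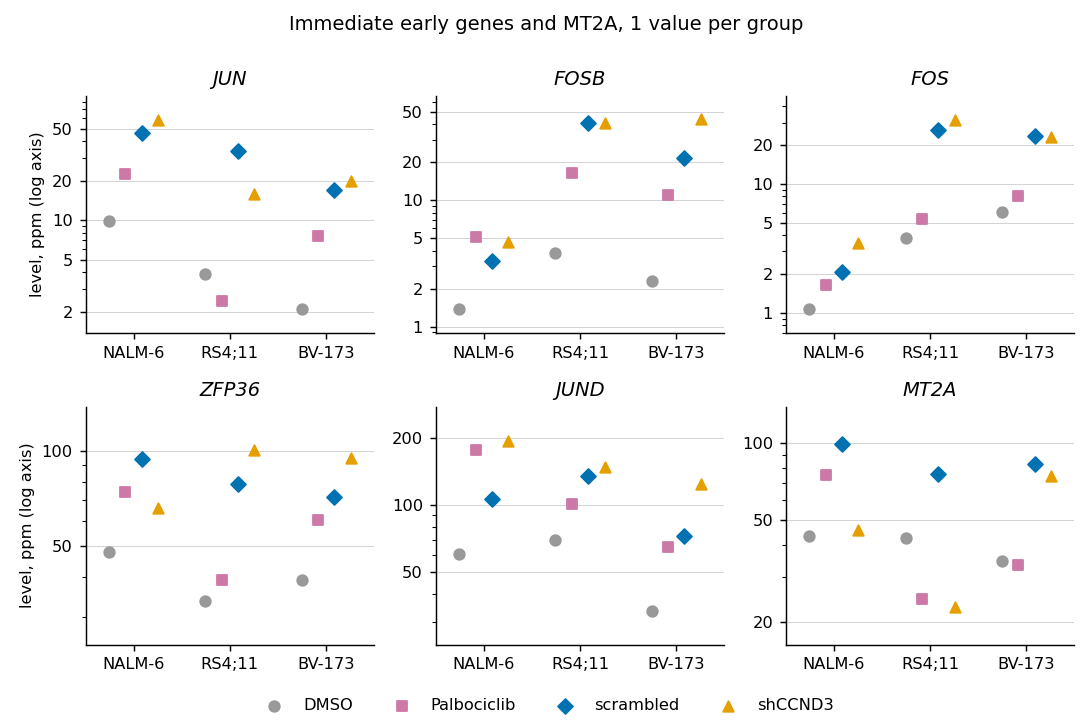
Levels ppm (y axis, log scale, a separate scale for each gene) of *JUN*, *FOSB*, *FOS*, *ZFP36*, *JUND* and *MT2A* in the DMSO (circles), palbociclib (squares), scrambled (diamonds) and shCCND3 (triangles) groups of the 3 lines (x axis), 1 value per group. The scrambled group is above the DMSO group in every line for all 6 genes, and for *MT2A* it is the highest of the 4 groups, at 99.3, 75.9 and 83.0 ppm.

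*MT2A*, a metallothionein (chromosome 16, 56608584 to 56609497), stood at 99.3 against 43.4 ppm in NALM-6, 75.9 against 42.7 in RS4;11 and 83.0 against 34.5 in BV-173. The mean difference was 1.10 ± 0.13 (limma, adjusted p = 0.026). The scrambled groups also exceeded the shCCND3 groups in the same vector, which held 45.8, 22.8 and 74.3 ppm, and the palbociclib groups, which held 75.4, 24.6 and 33.3. *SLC30A1*, the plasma membrane zinc exporter (chromosome 1, 211571568 to 211579161), was higher by 1.25 ± 0.18 (adjusted p = 0.071), with 15.1 against 7.37 ppm, 18.8 against 6.54 and 21.6 against 9.55. Its call was lost without RS4;11 and with a pseudocount of 1 ppm. The scrambled group was the highest of the 4 in every line for *MT2A*, *SLC30A1* and *UNC5B* among the 21 genes called higher. This order held for 4.15% of all genes, although the call itself already set scrambled above DMSO.

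*SPIB*, an ETS factor of B cells (chromosome 19, 50418938 to 50431314), stood at 32.8 against 7.34 ppm in NALM-6, 36.1 against 10.9 in RS4;11 and 48.8 against 11.7 in BV-173. The mean was 1.98 ± 0.16 (adjusted p = 0.0043), and the lines differed little from each other. *ID2*, which binds E proteins such as TCF3 and keeps them off DNA (chromosome 2, 8682056 to 8684461), stood at 29.4 against 7.72 ppm, 17.5 against 5.05 and 42.6 against 16.4, with a mean of 1.70 ± 0.17 (adjusted p = 0.023). *SPIB*, *JUN* and *ID2* were the 3 genes still called with a pseudocount of 5 ppm.

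*CBFA2T3*, a corepressor of the ETO family, was higher by 1.44 ± 0.17 (adjusted p = 0.026), from 20.0 to 65.7 ppm between DMSO and scrambled cells of NALM-6, 7.95 to 17.7 in RS4;11 and 7.13 to 19.4 in BV-173. *HIVEP3*, a large zinc finger factor, was higher by 0.95 ± 0.14 (adjusted p = 0.081). Its call was lost without NALM-6 and after a trend with length and GC content was taken out. Of the 30 genes listed for FOXO and B-cell signalling, *SPIB* was the 1 called, against 0.158% of all genes called higher. The median of the list was 0.08, against 0.05 over all genes.

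Further called genes act in transcription, splicing and stress signalling. *HEXIM1*, which holds the elongation kinase P-TEFb inactive, was higher by 1.11 ± 0.13 (adjusted p = 0.026), with 95.2 against 38.1 ppm, 63.5 against 32.4 and 50.8 against 24.6. *SRSF6*, a splicing factor, was higher by 0.87 ± 0.11 (adjusted p = 0.031), with 345 against 193 ppm, 288 against 164 and 444 against 228. For both genes the scrambled group was above DMSO by a similar distance in each line, while the order of scrambled and shCCND3 changed between lines.

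*GADD45B*, a stress-induced regulator of MAP kinase signalling, was higher by 1.28 ± 0.19 (adjusted p = 0.071), and *IQSEC1*, an exchange factor for ARF GTPases, by 1.07 ± 0.17 (adjusted p = 0.086). Neither was called without NALM-6. *GPER1*, a G protein-coupled estrogen receptor, was higher by 2.04 ± 0.26 (adjusted p = 0.036), with 106 against 32.9 ppm in NALM-6 and 18 against 2.81 in BV-173, but under 1 ppm in RS4;11, at 0.790 against 0.237. Its call was lost with a pseudocount of 1 ppm.

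Further genes called higher are named after their values were seen. *MKNK2*, a kinase downstream of MAP kinases, and *CXXC5* were called with means of 0.78 and 0.73, and both calls were lost without NALM-6. The call of *CXXC5* was also lost without RS4;11. *NPIPB3* was called with a mean of 0.75, but belongs to a family of nearly identical copies between which reads can be split. Its call was also lost after median centring, upper quartile scaling and leaving the 100 highest genes out of the sum.

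*UNC5B*, a netrin receptor, had the widest called difference (3.97 ± 0.47, adjusted p = 0.026) at levels of at most 1.70 ppm, and its call was lost with a pseudocount of 1 ppm. In this gene the 2 groups of a table lay close together, at 0.814 and 0.472 ppm for scrambled and shCCND3 in NALM-6 and at 0.0389 and 0.0314 for DMSO and palbociclib.

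*DYNLRB1*, a light chain of the dynein motor (chromosome 20, 34515602 to 34540958), was lower in the scrambled groups. It stood at 26.2 against 101 ppm in NALM-6, 33.3 against 88.9 in RS4;11 and 41.4 against 72.1 in BV-173, a mean of -1.39 ± 0.19 (limma, adjusted p = 0.056). The scrambled value was the odd one out of 4 in each line. The shCCND3 groups held 85.0, 75.9 and 87.1 ppm and the palbociclib groups 101, 97.3 and 79.3, all closer to DMSO than to scrambled. The call was lost with a pseudocount of 1 ppm.

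*CHCHD10*, a protein of the mitochondrial intermembrane space (chromosome 22, 23765834 to 23767972), was the other gene called lower, with 37.0 against 83.3 ppm, 53.1 against 92.7 and 41.4 against 73.3. Its mean was -0.93 ± 0.13 (adjusted p = 0.044), and the call was lost without NALM-6. *CHCHD10* was also lowest in the scrambled group in every line, with 44.7, 76.2 and 66.7 ppm in the shCCND3 groups. A scrambled group below the other 3 in each line was found for 2.49% of all genes, although the call itself already set scrambled below DMSO.

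Both *DYNLRB1* and *HSD17B10* are among 12 genes that the study singled out, a list chosen on these samples and so no independent evidence. The paper names both, and *RENBP*, as repressed by *CCND3* knockdown alone. In the values used here, shCCND3 was above scrambled in every line for all 3. The log2 of shCCND3 over scrambled was 1.695, 1.187 and 1.074 for *DYNLRB1* and 1.124, 1.426 and 0.827 for *HSD17B10*. For *RENBP* it was 0.447, 1.585 and 0.693, and the reason was not tested. *HSD17B10*, a mitochondrial dehydrogenase that is also part of mitochondrial RNase P (chromosome X, 53431258 to 53434376), stood at 23.5 against 54.5 ppm in NALM-6, 17.7 against 51.3 in RS4;11 and 33.4 against 40.5 in BV-173. Its mean of -1.01 ± 0.22 was not called (limma, adjusted p = 0.19). The shCCND3 groups held 51.2, 47.7 and 59.2 ppm and the palbociclib groups 69.2, 69.2 and 71.0. In NALM-6 and RS4;11 the shCCND3 value thus lay within 4 ppm of DMSO, while the scrambled value lay at 43.1% and 34.6% of it.

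Of the 12 genes, *DYNLRB1* was called lower and none higher, against 0.015% and 0.158% of all genes. Another gene, *RENBP*, was lowest in the scrambled group in every line, but with 8.88 against 11.1, 8.37 against 8.57 and 12.9 against 13.4 ppm the gap to DMSO was small in RS4;11 and BV-173. For the other 9 genes, *CCND3* among them, the mean difference lay between -0.27 (*NEK7*) and 0.18 (*ICMT*). *CDK8*, the kinase of the Mediator complex, stood at 55 against 56.1 ppm, 31.5 against 36.6 and 38.8 against 52.3 (mean -0.23 ± 0.13, adjusted p = 0.56). *GFPT1*, the entry enzyme of hexosamine synthesis, and *PRDX3*, a mitochondrial peroxidase, had means of 0.05 and -0.02.

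**Figure D3:**
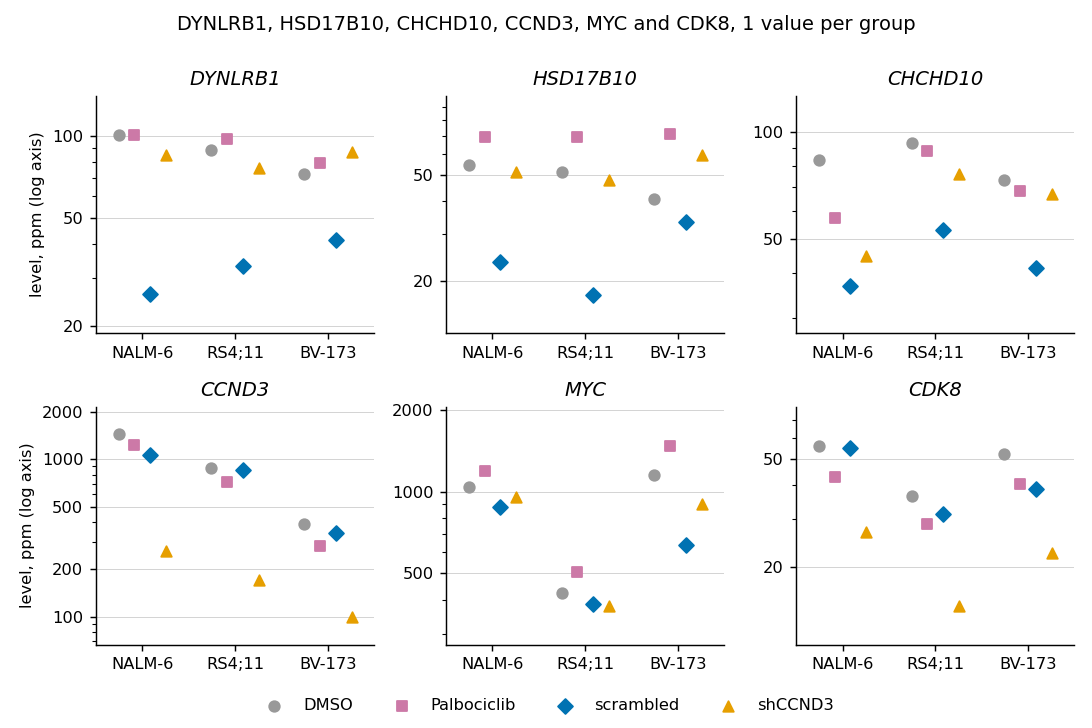
Levels ppm (y axis, log scale, a separate scale for each gene) of *DYNLRB1*, *HSD17B10*, *CHCHD10*, *CCND3*, *MYC* and *CDK8* in the DMSO (circles), palbociclib (squares), scrambled (diamonds) and shCCND3 (triangles) groups of the 3 lines (x axis), 1 value per group. For *DYNLRB1* the scrambled groups, at 26.2, 33.3 and 41.4 ppm, lie apart from the other 3 groups, while for *CCND3* and *CDK8* the shCCND3 groups are the lowest.

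No D-type cyclin or partner was called. Of the 13 genes listed, 0 were called by limma, against 0.158% called higher and 0.015% called lower among all genes. In the same fit 0 of the 13 had an unadjusted p under 0.05, against 1444 of all 13307 genes. *CDK4* stood at 236 against 231 ppm, 176 against 192 and 239 against 232 (mean -0.02 ± 0.11). *CDK6* ranged from 507 against 433 ppm in NALM-6 to 179 against 265 in BV-173 (mean -0.14 ± 0.16). *CCND2* was 14.4 against 3.75 ppm in NALM-6, and 35.2 against 44.3 in BV-173, so its difference had opposite signs in these lines.

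Genes of mitosis had mostly negative differences, without a call. Of the 38 listed, 26 had differences below 0 in every line, against 1619 of all 13307 genes, and the median was -0.32 (-0.37, -0.48 and -0.11 by line). limma called 0 of them, with 21 of 38 at an unadjusted p under 0.05, against 1444 of all 13307 genes. Among them 10 were at least 1.5-fold lower in NALM-6, while RS4;11 had 14 such genes and BV-173 had 2. The shares over all genes at 5 ppm or more were 2.54%, 1.26% and 5.36%. *CENPA*, the histone variant of centromeres, stood at 37.2 against 55.3 ppm, 16.1 against 31.5 and 24.3 against 31.7 (mean -0.64 ± 0.15, adjusted p = 0.23). *CDC25C*, a phosphatase that activates CDK1, had a mean of -0.63 ± 0.16 (adjusted p = 0.27).

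The median of the DNA replication genes was 0.04 (0.02, -0.11 and 0.18 by line). limma called 0 of 38, with 2 at an unadjusted p under 0.05, against 1444 of all 13307 genes. *POLE*, the catalytic subunit of a replicative polymerase, had a mean of 0.41 ± 0.11 (adjusted p = 0.27), and *CDT1*, which licenses origins, of -0.45 ± 0.13 (adjusted p = 0.28). *FOXM1* and *MYBL2*, which drive mitotic genes, had means of -0.01 ± 0.12 and 0.20 ± 0.14.

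Immune gene lists had medians of different sign among the lines. The 12 MHC class II genes had medians of 0.55 in NALM-6, 0.72 in RS4;11 and, for BV-173, -0.25, with 5 and 8 genes at least 1.5-fold higher in the first 2 lines and 3 at least 1.5-fold lower in BV-173. Over all genes 19.5% were that much higher in NALM-6, 10.9% were in RS4;11, and 9.63% were that much lower in BV-173. *CIITA*, the master regulator of these genes, stood at 74.9 against 49.9 ppm, 121 against 86.3 and 30.6 against 52.9. The 16 NF-kB targets had medians of 0.60, 0.56 and -0.10. *TNF*, a cytokine with the highest mean among them (1.5 ± 0.38, adjusted p = 0.25), stood at 4.76 against 0.678 ppm, 22.6 against 9.69 and 28.6 against 20.4. limma called 0 genes of either list, with 2 of 12 and 2 of 16 at an unadjusted p under 0.05, against 1444 of all 13307 genes. The difference between lines was not tested.

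Interferon and nucleic acid sensing genes, which answer to viral RNA and DNA, held no call. The 41 interferon-stimulated genes had a median of 0.12, with 0.38, 0.03 and -0.28 by line. Of them 0 were called (limma, 2 at an unadjusted p under 0.05, against 1444 of all 13307 genes). *IRF1*, an interferon-induced factor, stood at 109 against 76.1 ppm, 148 against 68.2 and 94.4 against 100 (mean 0.51 ± 0.20, adjusted p = 0.41), and *MX2*, an antiviral GTPase, had differences of 1.43, 0.50 and -0.41. Of 27 genes for sensing or restricting vectors, 0 were called, 5 had an unadjusted p under 0.05 (1444 of all 13307) and the median was 0.08. *TLR9*, a receptor for unmethylated DNA, was past 1.5-fold in every line, with 11.1 against 2.70 ppm, 43.7 against 27.6 and 9.98 against 4.97, but was not called (mean 1.24 ± 0.26, adjusted p = 0.19).

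The small RNA machinery, which shRNAs enter, had a median of 0.12 over 13 genes. limma called 0 of them, with 3 at an unadjusted p under 0.05, against 1444 of all 13307 genes. *DGCR8* and *TNRC6A*, which act in microRNA processing and silencing, had means of 0.49 ± 0.15 and 0.47 ± 0.13 (adjusted p = 0.33 and 0.28).

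**Figure D4:**
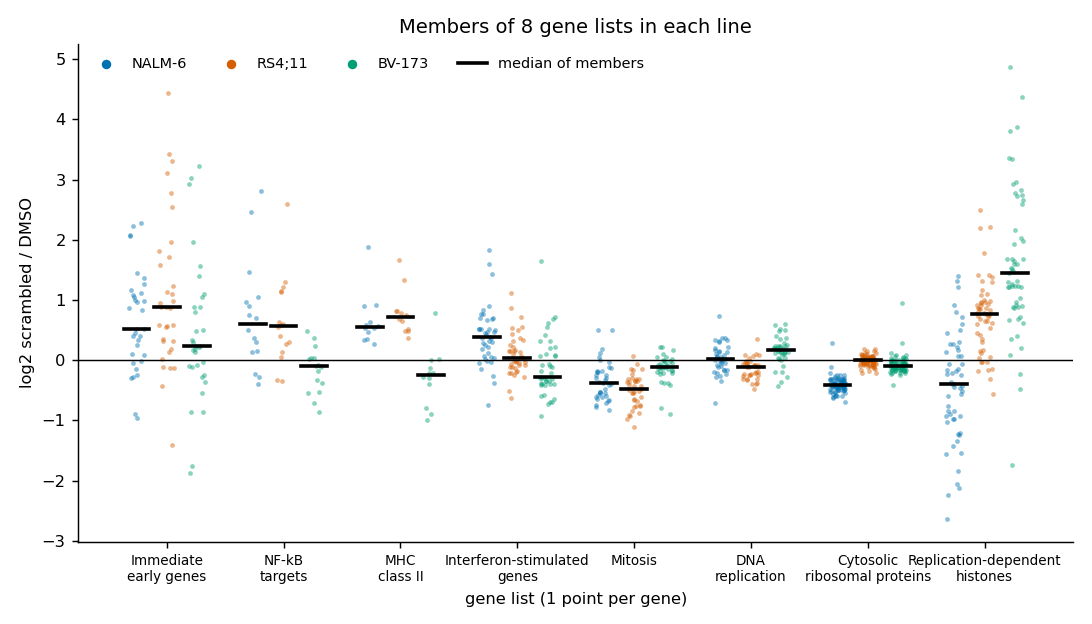
Log2 of scrambled over DMSO (y axis) of each listed member of 8 gene lists (x axis) in each line, with a black bar at the median of the members. The bars of the immediate early genes lie above 0 in each line (0.52, 0.89 and 0.23), those of the mitosis genes below 0 (-0.37, -0.48 and -0.11), and those of the replication-dependent histones on both sides (-0.40, 0.77 and 1.45).

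Among stress lists, 0 heat shock, unfolded protein response, ATF4, p53 or cholesterol genes were called by limma, with 3 of 21, 4 of 20, 6 of 28, 6 of 27 and 7 of 29 at an unadjusted p under 0.05. Over all genes this count was 1444 of 13307. *HSPA1B*, an inducible HSP70, stood at 94.3 against 32.3 ppm, 128 against 87.8 and 45.6 against 22.3 (mean 1.04 ± 0.18, adjusted p = 0.11). *HSPA1A*, of the same list, stood at 1.17 against 0.308 ppm, 16.4 against 12.2 and 0.414 against 0.431 (mean 0.77 ± 0.41, limma adjusted p = 0.53). *HSPA5*, the chaperone of the endoplasmic reticulum, stood at 505 against 248 ppm, 293 against 258 and 262 against 85.0 (mean 0.94 ± 0.22, adjusted p = 0.24). In *HSPA1B* and *HSPA5* the scrambled group was above DMSO in each line, but the size varied between lines. In *HSPA1A* it was not above DMSO in BV-173.

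Of 35 glycolysis and hypoxia genes, 3 were past 1.5-fold higher in every line, *BHLHE40*, *ANKRD37* and *VEGFA*, against 1.97% of all genes, and 0 were called (limma, 11 of 35 at an unadjusted p under 0.05, against 1444 of 13307). *BHLHE40*, a circadian and hypoxia-linked repressor, stood at 38.6 against 18.7 ppm in NALM-6, 1.56 against 0.490 in RS4;11 and 30.1 against 4.00 in BV-173 (mean 1.88 ± 0.33, adjusted p = 0.11). *PFKFB3*, which raises the rate of glycolysis, stood at 76.7 against 28.7 ppm, 81.5 against 37.0 and 37.2 against 27.0 (mean 1.01 ± 0.18, adjusted p = 0.12).

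Replication-dependent histone genes, whose mRNAs end without a poly(A) tail, were low in these oligo-dT enriched libraries, and 1 of 55 reached 5 ppm. Their medians were -0.40 in NALM-6, 0.77 in RS4;11 and, for BV-173, 1.45, with 22 genes at least 1.5-fold lower in NALM-6 and 37 and 48 at least 1.5-fold higher in the other lines. Over all genes 4.16% were that much lower in NALM-6, and 10.9% and 9.41% that much higher in the other lines. *H2BC12*, the 1 gene at 5 ppm, stood at 8.42 against 9.47 ppm, 16.7 against 9.12 and 6.41 against 3.29. Copies of these genes are nearly identical, so reads can be split between them. Cytosolic ribosomal protein genes had medians of -0.41, 0.00 and -0.09 over 83 genes. Of these, 38 were below 0 in every line, against 1619 of all 13307 genes. limma called 0 of the 83, with 0 at an unadjusted p under 0.05, against 1444 of all 13307 genes.

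Most markers of other cell types were not listed in all 6 tables. Of 12 T and NK markers, 3 were listed, of which *CD3G* stayed at or below 0.0619 ppm, and their sum ran from 5.88 to 74.7 ppm, most of it *NKG7*. Of 12 myeloid markers 6 were listed with sums from 5.09 to 51.1 ppm, and of 10 erythroid and megakaryocyte markers 3, with sums from 2.16 to 15.7. *ITGAM* and *CSF1R*, which RS4;11 held at 21.7 against 13.7 and 26.7 against 16.1 ppm, made up most of the myeloid sum in RS4;11 and BV-173, but not in NALM-6, where both were under 1 ppm. The myeloid sum in the scrambled and DMSO groups was 5.09 and 5.43 in NALM-6, 51.1 and 32.4 in RS4;11 and 14.1 and 12.3 in BV-173. The fibroblast and epithelial sum was nearly all *VIM*, which leukemia cells express (1031 against 1296, 1347 against 1270 and 920 against 1119 ppm). The defining markers *CD3D*, *CD3E*, *HBB* and *EPCAM* were not listed in all 6 tables, and the part of other cells in the calls was not tested.

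The treated groups of the same tables are set beside the genes that were higher in the scrambled groups. They share no sample with the controls. However, shCCND3 shares table, scaling, vector and day with scrambled, and palbociclib shares table, scaling and day with DMSO. The treated pair is therefore no independent repeat of the control pair. For the 21 genes called higher, the median of log2 shCCND3 over palbociclib, averaged over lines, was 0.68, and 13 of them (61.9%) were above 0 in every line, against 23.1% of all genes. For the 59 genes at 5 ppm or more these values were 0.59 and 28 (47.5%, against 25.5%). Both shRNA groups exceeded both compound groups in every line for 8 of the 21 genes, among them *JUN*, *ID2*, *SRSF6*, *SLC30A1*, *GADD45B*, *IQSEC1* and *UNC5B*, against 2.41% of all genes, although the call itself already fixed the order of scrambled and DMSO. Other called genes had palbociclib above scrambled in a line. In NALM-6 these included *JUND* (176 against 107 ppm), *CBFA2T3* (143 against 65.7) and *GPER1* (137 against 106), and in RS4;11 *SPIB* (41.0 against 36.1). *MYC* and *CHCHD10* were below both compound groups in both shRNA groups in every line, as were 0.924% of all genes. Knockdown and palbociclib have effects of their own, and the share of each was not tested.

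The level of a gene moved with its difference. In the lowest quintile of genes by level (2.40 ppm or less) the median difference was 0.32, with 0.53, 0.30 and 0.06 by line, and in the highest quintile it was 0.01. The lowest quintile held 182 of the 262 genes past 1.5-fold higher in each line, which is 6.84% of its genes, and the highest quintile held 1. In the lowest quintile the interquartile range of the scrambled to DMSO difference was 1.06, 0.98 and 1.25, while it was 0.50, 0.62 and 0.35 within the shRNA tables, and 1.18, 0.97 and 0.63 within the compound tables. At 5 ppm or more these ranges were 0.46, 0.33 and 0.39 between the controls, 0.48, 0.51 and 0.42 within the shRNA tables, and 0.75, 0.70 and 0.67 within the compound tables. The spread of low genes between the controls was thus above that within the shRNA tables in each line, and above that within the compound tables in RS4;11 and BV-173 but not in NALM-6. Different genes also held the same very low value in a column. Such a value was 0.00777 ppm for *VCAN* and *SNRPN* in the RS4;11 DMSO group. In the scrambled BV-173 group it was 0.00839 ppm for *NAT8L* and *SNRPN*. No pseudocount was added, so a ratio can rest on such a value. The part of these low values and of table scaling in the 262 genes was not tested.

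**Figure D5:**
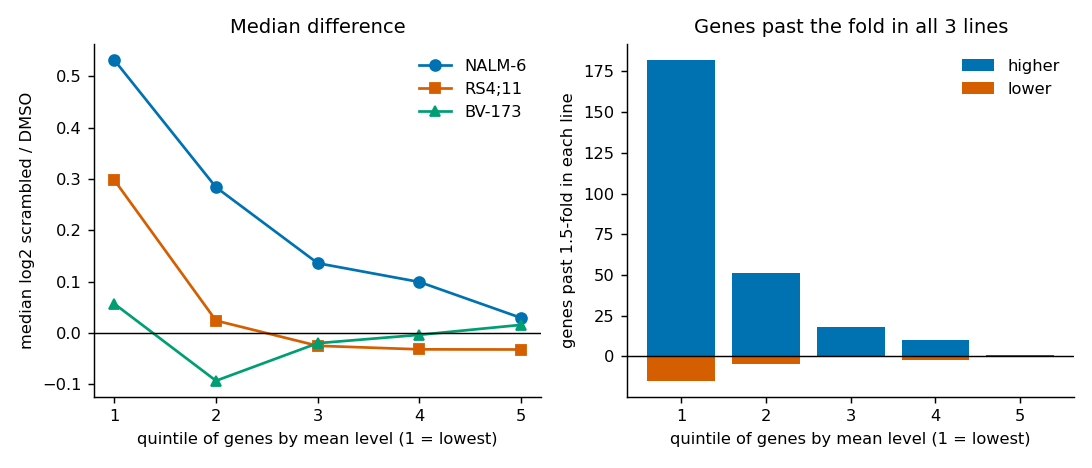
Left, the median log2 of scrambled over DMSO (y axis) in quintiles of the 13307 genes ordered by mean level (x axis, 1 is the lowest) for each line. Right, the number of genes in each quintile past 1.5-fold higher (above 0) or lower (below 0) in every line. The lowest quintile has a median of 0.53 in NALM-6 and holds 182 of the genes past 1.5-fold higher.

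The median of the mean difference moved little with transcript length and GC content at 5 ppm or more. Over quintiles by length the median ran from -0.03 for the shortest to 0.07 for the longest genes, but in opposite directions in NALM-6 (-0.03 to 0.20) and BV-173 (0.06 to -0.06). Over quintiles by GC content it ran between 0.00 and 0.05, but fell in NALM-6 (0.16 to 0.06) and rose in RS4;11 (-0.06 to 0.04) and BV-173 (-0.06 to 0.04). Genes past 1.5-fold higher in each line were more frequent at high GC content. From the lowest to the highest quintile they numbered 6, 8, 6, 22 and 16 (0.3%, 0.4%, 0.3%, 1.1% and 0.799%). *HIVEP3* was the 1 gene whose call was lost when both trends were taken out.

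A further 34 genes at 5 ppm or more were at least 2-fold higher in 1 line and at least 2-fold lower in another. For 28 of them, 1 or both of these directions were seen solely in lines where both controls were under 5 ppm. *KCNK12*, a potassium channel subunit, had the widest range, with 0.162 against 0.0166 ppm in RS4;11 and 0.0215 against 0.0621 in NALM-6, while BV-173 held 304 against 270. *DUSP6*, the ERK phosphatase, was expressed in all 3 lines, with 72.6 against 34.2 ppm in NALM-6, 122 against 164 in RS4;11 and 72.7 against 245 in BV-173. The scrambled group was thus above DMSO in NALM-6 and below it in the other 2 lines, and the difference between lines was not tested.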

How the data were processed

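RNA of 34 samples of 3 cell lines was sequenced by the authors from oligo-dT enriched libraries. Per the labels and the study's methods, reads were cleaned with SOAPnuke, aligned to hg38 with Bowtie2, quantified with RSEM and compared with DESeq2 (versions not given in the sources used here). The deposited tables hold 1 normalised signal per gene and group, beside fold changes and p-values of the authors' own comparisons, which were not used. Each control column was divided by its sum and multiplied by 1e+06. The 3 log2 ratios of scrambled over DMSO of each of 13307 genes were tested against 0 with limma 3.58.1 (R 4.3.3, moderated with a trend on mean level), with Benjamini-Hochberg adjustment over all 13307 genes. Calls required an adjusted p below 0.1 together with a mean of 1.5-fold or more. An exact permutation test of 3 pairs cannot go below p = 0.25. No pseudocount was added. Named genes were the called genes at 5 ppm or more ranked by their smallest difference over the lines (up to 15 in each direction), the study's 12 genes, the D-type cyclin list, from each other list the 2 members at 5 ppm or more with the highest and the 2 with the lowest mean, and up to 4 genes of opposite direction between lines. The fit was also run on simulated data whose spread followed level alone, so that run could not test the trend on which the calls depend. Members and lists were chosen with earlier results of these data known. Alternatives were other scalings, pseudocounts, level minimums, thresholds and leaving out each line. Depth per sample and counts are not in the values used, so no counting interval is given. Gene positions and promoters are from RefSeq (GRCh38.p14), matched by gene ID for 13290 genes. Some genes that entered the fit and the counts are not reported here by name.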

Additional observations from a re-analysis of the deposited data

How the results depend on the processing

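The fit paired the controls by cell line. By replicate number, no paired analysis was possible because the columns hold 1 value per group and carry no such numbers. limma called 21 genes higher and 2 lower. The calls were 9 and 1 with a pseudocount of 1 ppm, 3 and 0 with a pseudocount of 5, 12 and 1 at an adjusted p under 0.05, and 0 and 0 with no trend in the moderation, and 1 gene was called lower at a fold of at least 2. Leaving out a line gave from 30 to 443 higher and from 3 to 46 lower, with 48 and 9 without RS4;11. Past 1.5-fold in each line were 262 genes higher and 22 lower. These counts were 98 and 10 at a mean level of at least 1 ppm, 59 and 5 at 5, 24 and 2 at 20, 41 and 3 with a pseudocount of 1, 14 and 2 with a pseudocount of 5, and 54 and 2 at a fold of at least 2. With a line left out, which leaves fewer lines to pass, they ran from 514 (without NALM-6) over 520 (without RS4;11) to 734 (without BV-173) higher, and were 159, 106 and 77 lower. Medians of short or low lists moved. That of myeloid markers (0.54) was 0.27 at a level of 1 ppm, and 0.13 and 0.029 with pseudocounts of 1 and 5. That of erythroid markers (0.08) was 0.24 and 0.40 at levels of 1 and 5, -0.085 and -0.019 with these pseudocounts, and -0.44, 0.26 and -0.18 without NALM-6, RS4;11 and BV-173. That of fibroblast and epithelial markers (0.33) was -0.18 at levels of 5 and 20. That of the BCL2 family (0.15) was 0.088, 0.026 and 0.068 at levels of 1, 5 and 20, and 0.052 and 0.018 with the pseudocounts. That of the small RNA machinery (0.12) was 0.19 without RS4;11 and 0.045 with the length and GC trend taken out. The cause of these moves was not tested. With 1 value per group, neither depth nor the spread between cultures could be read.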

Other observations

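Among the 59 genes at 5 ppm or more that were past 1.5-fold higher in each line, *MS4A1*, *MAP1B* and *RGS1* had the largest means and are named after their values were seen. *MS4A1*, which encodes the B-cell antigen CD20, stood at 8.10 against 0.233 ppm in NALM-6, 0.747 against 0.316 in RS4;11 and 82.9 against 10.6 in BV-173 (mean 3.11 ± 0.59, SE, n = 3 lines, limma adjusted p = 0.15). *RGS1*, a brake on G protein signalling in B cells, stood at 184 against 31.5 ppm in RS4;11, but under 1 ppm in NALM-6. *MAP1B*, a microtubule-associated protein, stood at 228 against 127 ppm in NALM-6 and under 1 ppm in the other lines. Each of the 3 was thus high in 1 line, and none was called.

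Of the 5 such genes that were lower, *DYNLRB1* and *CHCHD10* were called and *ETV4*, *EVI5L* and *CMTM8* were not (limma adjusted p = 0.25, 0.25 and 0.27). *ETV4*, an ETS factor, stood at 31.1 against 56.2 ppm in RS4;11 and under 1 ppm in the other lines. *CMTM8* stood at 11.4 against 18.8 ppm in NALM-6, 3.74 against 5.71 in RS4;11 and 15.4 against 24.9 in BV-173.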
